A study of Mus musculus with 16 samples.

Results

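The genes that build and maintain the myogenic programme were followed in quadriceps muscle: the 4 myogenic regulatory factors Myod1, Myf5, Myf6 (which encodes MRF4) and Myog (myogenin), the stem cell factor Pax7, the MEF2 genes Mef2a, Mef2c and Mef2d, and Hdac5, which encodes a repressor of MEF2. They are the 9 members, taken by name from the 18872 entries of the expression table, where an entry can join several gene names. All 9 had an entry, and Mef2a shared its own with Lrrc28. The 16 male mice fell into 4 groups of 4: exercised VV, sedentary VV, exercised MM and sedentary MM. VV mice are homozygous for a Camk2g knock-in, which puts valines in place of the methionine pair that lets CaMKIIγ be activated by oxidation. MM mice are their wild-type littermates. All were 13 to 15 weeks old, had been acclimated to the treadmill, and had their food taken away on the morning of collection. Exercised mice ran 350 m uphill and were killed 3 h later, mice that did not finish being left out, whereas sedentary mice had no run. Each whole quadriceps was homogenized, and its polyadenylated RNA was sequenced as a stranded library, 1 library a mouse. Levels are FPKM, fragments scaled to the length of the transcript and to the number of mapped fragments, so that levels of different genes can be set side by side per length.

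The myogenic regulatory factors are basic helix-loop-helix proteins that pair with E proteins and bind E-boxes in muscle genes. MYF5 and MYOD commit cells to the muscle lineage, myogenin drives their differentiation, and MRF4 is the family member best known from mature fibres. PAX7 marks satellite cells, the stem cells that lie along the fibre. MEF2 proteins act with the myogenic factors and are held in check by class IIa histone deacetylases such as HDAC5, which leave the nucleus when calcium-dependent kinases, CaMKII among them, phosphorylate them. RNA levels report on none of these steps in the protein.

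The members of each family resemble each other in a conserved part of the coding sequence, which is shown here because it decides whether reads of related genes can be told apart. Below are the 60 bases, in frame, where the 4 myogenic factors are most alike, in the helix-loop-helix region of each gene, with the 43 bases that all of them share in capitals (GENCODE M21 transcripts, 5′ to 3′).
Myod1: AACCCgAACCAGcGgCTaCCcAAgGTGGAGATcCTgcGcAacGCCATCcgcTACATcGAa
Myf5: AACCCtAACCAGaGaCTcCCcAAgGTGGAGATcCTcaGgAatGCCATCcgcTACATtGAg
Myf6: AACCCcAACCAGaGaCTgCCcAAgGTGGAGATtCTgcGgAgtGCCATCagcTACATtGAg
Myog: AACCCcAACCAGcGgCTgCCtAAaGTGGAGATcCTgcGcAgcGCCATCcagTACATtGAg
The stretch starts at base 415 of the coding sequence of Myod1, 337 of Myf5, 367 of Myf6 and 331 of Myog. Myf5 and Myf6 are the closest pair in it, with 53 of 60 bases the same, and Myf5 and Myog the most distant, with 47. The same search in the MEF2 genes found coding bases 130 to 189 in all 3, in the MADS and MEF2 domains, with 47 bases shared by all and written in capitals.
Mef2a: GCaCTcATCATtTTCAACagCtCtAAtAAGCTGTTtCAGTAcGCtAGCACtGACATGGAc
Mef2c: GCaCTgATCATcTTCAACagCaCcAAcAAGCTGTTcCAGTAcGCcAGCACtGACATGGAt
Mef2d: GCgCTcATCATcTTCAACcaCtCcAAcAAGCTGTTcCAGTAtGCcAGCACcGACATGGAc
The longest exact run shared by the transcripts of a pair, 1 a gene, was 28 bases, in Mef2c and Mef2d, and 26 bases, in Myod1 and Myf5. Reads were 100 bases long, so no read lies wholly within a run that a pair shares.

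On GRCm38, Myod1 lies at chr7:46376474-46379099 (+), Myog at chr1:134289989-134292548 (+) and Pax7 at chr4:139737062-139833528 (-). Myf6, at chr10:107492853-107494737 (-), and Myf5, at chr10:107482908-107486134 (-), are neighbours 6718 bases apart. Mef2a is at chr7:67231163-67372858 (-), Mef2c at chr13:83504034-83667080 (+), Mef2d at chr3:88142372-88172086 (+) and Hdac5 at chr11:102194432-102230166 (-). The protein-coding gene Lysmd4 lies on the opposite strand across 76168 bases of Mef2a, and an antisense gene overlaps 531 bases of Mef2d. The sources used here do not say whether the strand was used in counting. The level of Mef2a, which is also joined to Lrrc28, is therefore uncertain.

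Promoters of 7 of the 9 genes could be read from RefSeq's table (GRCm38.p6), in the 250 bases before the start site. Those of Hdac5 and Myog are printed as examples that hold matches to the motifs of the members' own proteins. Windows of Mef2c hold E-boxes too and are not printed. The choice was made after all values had been seen. Capitals mark E-boxes (CANNTG, on either strand) and the MEF2 consensus.
Hdac5, chr11:102230173-102230422, minus strand: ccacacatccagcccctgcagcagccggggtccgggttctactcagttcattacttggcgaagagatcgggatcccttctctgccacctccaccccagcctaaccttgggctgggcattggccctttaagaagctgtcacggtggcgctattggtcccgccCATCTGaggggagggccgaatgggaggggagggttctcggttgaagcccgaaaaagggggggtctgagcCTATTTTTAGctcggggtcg
Myog, chr1:134289754-134290003, plus strand: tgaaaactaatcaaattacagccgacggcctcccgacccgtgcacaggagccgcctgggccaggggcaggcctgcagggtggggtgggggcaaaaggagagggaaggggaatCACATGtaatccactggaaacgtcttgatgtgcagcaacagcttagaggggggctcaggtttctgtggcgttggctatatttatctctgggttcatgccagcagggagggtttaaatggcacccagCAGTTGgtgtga
The Hdac5 window held 1 match to the MEF2 consensus, a motif that 2.92% of all 32851 promoters of this length hold, and 1 E-box, which 66.2% hold. The Myog window held 2 E-boxes and no full match to the MEF2 consensus, which its stretch ctatatttat misses by the last base alone. The 3 windows of Mef2c held 2, 0 and 1 E-boxes, those of Myf5, Pax7, Mef2a and Mef2d held neither motif, and the CRE half-site TGACG, found in 17.8% of promoters, was met once, in that of Myf5. The E-box and the MEF2 match of Hdac5 did not overlap. A match is not a site of binding, and the lack of one says only that these letters are not in the window.

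Without read counts, depth could only be estimated from the FPKM values. By this estimate the libraries were alike, ranging from 1 to 1.23 relative to the shallowest, exercised VV mouse 2. Muscle fibre markers summed to between 97861 and 129285 FPKM in a mouse, which fits the tissue named in the labels, and 5 neutrophil markers summed to at most 4.03 FPKM. Camk2g itself stood at 54.5 ± 2.99 FPKM in exercised VV, 60.6 ± 2.71 in sedentary VV, 60.3 ± 2.35 in exercised MM and 69.0 ± 3.40 in sedentary MM mice (SD, n = 4 each). The genotypes did not overlap: Camk2g ran from 50.5 to 56.9 FPKM in exercised VV and from 57.7 to 63.0 in exercised MM mice. At rest it ran from 57.3 to 63.7 FPKM in VV and from 65.6 to 72.9 in MM. Of tested entries, 3.39% were apart between genotypes in exercised and 1.90% in sedentary mice, and Camk2g passed in neither state. The knock-in changes codons, so a level of Camk2g checks no genotype. Summed over 10 macrophage markers, the level had a median of 64.6 FPKM in exercised VV, 83.8 in sedentary VV, 107 in exercised MM and 61.1 in sedentary MM mice. Mice are numbered 1 to 4 within a group, with no meaning to the order.

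The 9 genes covered a range of levels from over 100 FPKM to less than 1. Mef2c, the MEF2 gene most tied to skeletal muscle, was the highest, with 108.9 ± 13.2 FPKM over the 16 mice (SD), above 97.2% of all entries. Myf6 followed with 63.9 ± 11.8 FPKM, then Mef2d with 45.0 ± 3.93, Mef2a with 38.6 ± 3.77 and Hdac5 with 10.1 ± 1.99. The other myogenic factors were far lower: Myod1 averaged 5.13 ± 1.46, Myog 2.09 ± 0.565 and Myf5 0.549 ± 0.182 FPKM. Pax7 was the lowest, at 0.378 ± 0.107 FPKM. In bulk tissue, fewer cells of a type and less RNA per cell cannot be told apart, which bears above all on Pax7 and Myf5.

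**Figure D1:**
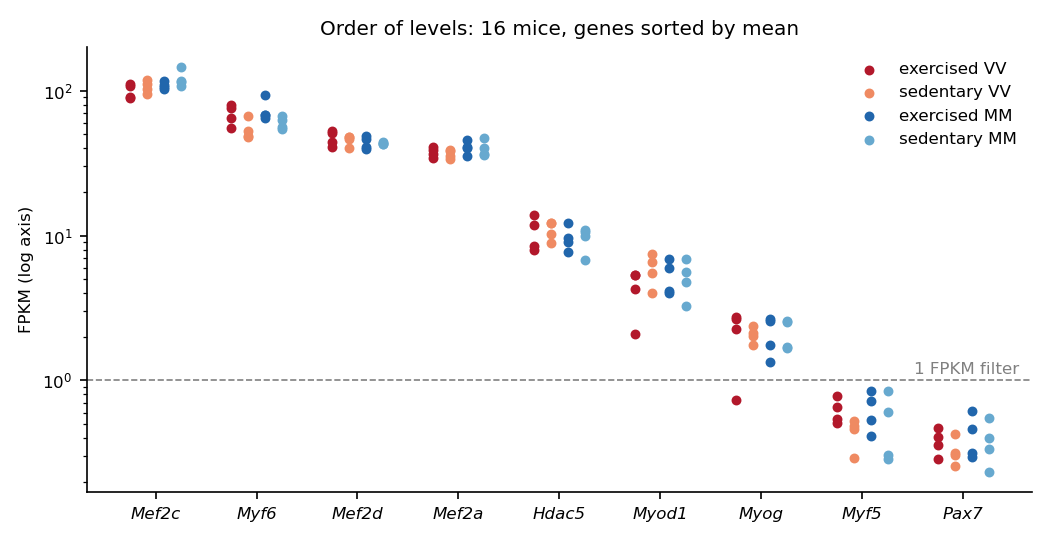
Level of each of the 9 genes in each of the 16 mice, in FPKM on a log axis, coloured by group, with the dashed line at the filter of 1 FPKM. Mef2c lies above Myf6 in every mouse, and Myf5 and Pax7 lie below the filter in every mouse.

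The order of levels was nearly the same in every mouse. Neighbours kept their order in all 16 mice for Mef2c over Myf6, Myf6 over Mef2d, Mef2a over Hdac5, Hdac5 over Myod1 and Myog over Myf5. Mef2d was above Mef2a in 15 of 16 mice, at only 1.16 times its mean, and these levels overlapped widely. Myod1 was above Myog in 15 of 16 mice, the exception being exercised VV mouse 2, in which Myod1 had 2.10 and Myog 2.64 FPKM. Myf5 was above Pax7 in 14 mice. Mef2c made up 53.9 ± 4.61% of the summed FPKM of the 3 MEF2 genes in exercised VV, 56.4 ± 2.80% in sedentary VV, 56.4 ± 2.30% in exercised MM and 59.1 ± 1.71% in sedentary MM mice (SD, n = 4 each).

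The design asks whether a single run changed these genes and whether it did so differently in mice whose CaMKIIγ lacks the oxidizable methionines. None of the members passed the test in any of the 7 comparisons, at an adjusted p under 0.05 by limma over the 10519 entries with a mean of at least 1 FPKM. Of the 9, 7 were tested, and Myf5 and Pax7 lay under that level and did not pass when all entries were kept either. For exercise in VV, 0 of 7 passed, where 0.276% of all entries did, and for exercise in MM 0 of 7, where 1.23% did. At those shares few genes of any set of 7 would be called. At an unadjusted p under 0.05, 1 of 7 (Myf6) was met for exercise in VV and 0 of 7 for exercise in MM, against 10.1% and 10.7% of all entries. The exercised and sedentary mice overlapped for all 9 genes in both genotypes, while they were apart for 4.91% of tested entries in VV and 6.74% in MM, and for 0.894% when the genotypes were joined. The median log2 fold change of the 7 was -0.07 in VV, beside -0.08 over all entries, and 0.02 in MM, beside -0.05. No p here was calculated on the 9 genes alone.

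**Figure D2:**
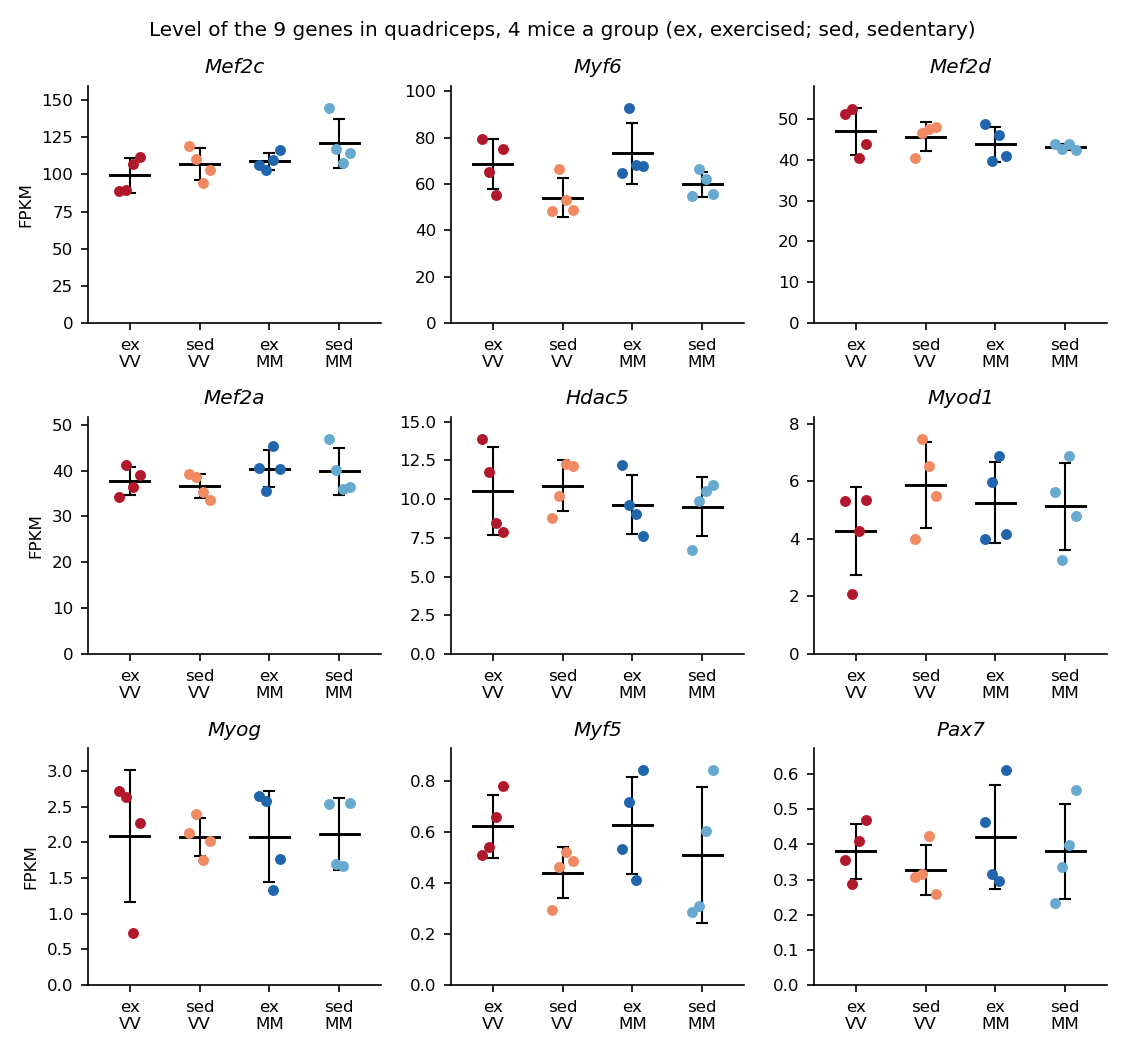
FPKM of the 9 genes by group, 1 point a mouse, with the mean (long bar) and SD (error bar) of 4 mice. In every panel the points of exercised and sedentary mice of a genotype overlap, and Myf6 shows the highest single value in exercised MM, 92.9 FPKM in mouse 2.

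Myf6, whose product MRF4 is the myogenic factor of mature fibres, came closest to a change after the run. Its levels were 79.2, 65.1, 55.0 and 75.2 FPKM in exercised VV, against 48.1, 66.4, 52.9 and 48.8 in sedentary VV mice. In MM they were 64.7, 92.9, 68.0 and 67.6 FPKM after exercise, against 54.7, 66.4, 62.3 and 55.7 at rest. Thus 2 of 4 exercised VV and 3 of 4 exercised MM mice lay above every sedentary mouse of their genotype, and the rest made the groups overlap. The log2 fold change was 0.34 in VV (95% interval 0.06 to 0.63, limma adjusted p = 0.396) and 0.28 in MM (-0.001 to 0.57, adjusted p = 0.468). Without exercised MM mouse 2 the value in MM was 0.16. With the genotypes joined it was 0.31 (0.11 to 0.51), a 1.24-fold higher level, with an adjusted p of 0.0886 by limma, where 3.14% of all entries passed and 18.7% had an unadjusted p under 0.05. This result lay near the threshold and crossed it in 4 of 27 alternative fits: with median-ratio scaling between mice, with the GC trend of each mouse removed, and without sedentary VV mouse 2 or exercised VV mouse 3, with adjusted p between 0.0414 and 0.0467. It did not cross it when mice whose titles share a number were treated as a block (adjusted p = 0.231). In VV, 4 of 8 tested macrophage markers had a positive fold change with exercise (median log2 fold change -0.04), and in MM 8 of 8 (median 0.81), none passing. Of 8 fibro-adipogenic markers, 6 had a positive fold change in VV (median 0.01), none passing, and 8 in MM (median 0.41), of which 1 passed (Ly6a, 0.32, adjusted p = 0.0478). Their summed level had a median of 568 FPKM in exercised VV, 586 in sedentary VV, 748 in exercised MM and 531 in sedentary MM mice. The part of these markers in the values of Myf6 was not tested.

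Since the other family members were so low, Myf6 made up most of the family's FPKM. Its share of the summed FPKM of the 4 factors lay between 90.0 and 92.5% in exercised VV and between 85.7 and 88.2% in sedentary VV mice, which do not overlap. In MM it lay between 88.7 and 90.9% after exercise and between 86.6 and 92.7% at rest. The FPKM of Myf6 itself did overlap between exercised and sedentary VV mice. The share also moves with the other factors in the sum: the highest in exercised VV, 92.5%, was in mouse 2, which had the lowest Myod1, 2.10 FPKM. How often such shares lie apart for other genes was not calculated. These shares are a description and carry no test.

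Myod1, the factor of activated satellite cells and fast fibres, had its lowest mean in exercised VV mice. It had 5.33, 2.10, 4.27 and 5.35 FPKM in exercised VV, against 3.99, 7.49, 6.54 and 5.50 in sedentary VV mice, and 4.00, 5.99, 6.88 and 4.17 in exercised MM, against 5.62, 3.26, 6.87 and 4.79 in sedentary MM mice. The log2 fold change was -0.51 in VV (-1.13 to 0.12, adjusted p = 0.595) and 0.05 in MM (-0.58 to 0.67, adjusted p = 0.978), and the difference between them was -0.55 (-1.43 to 0.33, adjusted p = 0.9997). Exercised VV mouse 2 weighed heavily here, and without it the value in VV was -0.20. The groups overlap, and the intervals run from 0.457 to 1.09-fold in VV and from 0.669 to 1.59-fold in MM, so that smaller changes were not resolved.

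Myog, which is high in embryonic and regenerating muscle, stood at the same mean in all groups. It averaged 2.09 ± 0.929 FPKM in exercised VV, 2.08 ± 0.264 in sedentary VV, 2.08 ± 0.639 in exercised MM and 2.11 ± 0.502 in sedentary MM mice (SD, n = 4 each). Its spread within a group was larger than any distance between groups, and exercised VV mouse 3, with 0.732 FPKM, was the lowest of all. Log2 fold changes with exercise were -0.13 in VV (-0.81 to 0.55) and -0.04 in MM (-0.73 to 0.64).

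Myf5 and Pax7, the satellite cell genes, were the lowest members, below 1 FPKM in every mouse. Myf5 had 0.507, 0.539, 0.659 and 0.780 FPKM in exercised VV, against 0.293, 0.463, 0.521 and 0.484 in sedentary VV mice, so that a single sedentary mouse, number 3, reached above the lowest exercised one. In MM it had 0.534, 0.715, 0.410 and 0.842 FPKM after exercise, against 0.285, 0.308, 0.605 and 0.844 at rest. In a fit with all entries kept, its log2 fold change was 0.42 in VV (-0.18 to 1.03, adjusted p = 0.747) and 0.31 in MM (-0.29 to 0.92, adjusted p = 0.786), on a scale to which 0.1 FPKM was added and which therefore understates changes this low. Pax7 lay between 0.288 and 0.471 FPKM in exercised VV, 0.258 and 0.425 in sedentary VV, 0.295 and 0.613 in exercised MM and 0.233 and 0.554 in sedentary MM mice. Its log2 fold change in the same fit was 0.17 in VV (-0.35 to 0.69) and 0.12 in MM (-0.40 to 0.64). Both genes varied together across mice, with a Pearson correlation of 0.74 over 16 mice, which is given as a description, since both come from the same libraries.

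Other satellite cell markers were read beside that pair in whole muscle, where other cells can express them too. Of 18 fixed markers, among them Cdh15, Calcr and Itga7, 11 were tested. For exercise 0 passed in VV and in MM, where 0.276% and 1.23% of all entries did, so few of any 11 genes would. With the genotypes joined 1 passed, Sdc4, a syndecan that many other cells express, at a log2 fold change of 0.57 (limma adjusted p = 0.0141). Of all entries, 1.98% were called higher there. The 18 markers summed to between 78.2 and 97.7 FPKM in exercised VV, 78.3 and 98.2 in sedentary VV, 84.0 and 107 in exercised MM and 74.7 and 91.3 in sedentary MM mice. Pax7 averaged 0.378 FPKM. The part of other cells in this sum was not tested, so the sum is not read as a level of satellite cells.

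The MEF2 genes had the narrowest intervals with exercise, all of which held 0, and that of Hdac5 was wider. Mef2c had 88.8, 89.7, 107 and 112 FPKM in exercised VV, against 119, 111, 94.3 and 103 in sedentary VV mice, and 106, 103, 110 and 116 in exercised MM, against 145, 117, 107 and 114 in sedentary MM mice. Its log2 fold change was -0.11 in VV (-0.32 to 0.11) and -0.14 in MM (-0.36 to 0.07). Mef2a gave 0.04 (-0.17 to 0.24) in VV and 0.02 (-0.18 to 0.23) in MM. Mef2d, expressed in most tissues, gave 0.04 (-0.15 to 0.23) in VV and 0.01 (-0.18 to 0.21) in MM. It was the steadiest member, with a coefficient of variation of 8.75% over the 16 mice, and its 4 sedentary MM mice all lay between 42.5 and 44.0 FPKM. The intervals of Mef2a and Mef2d lie between 0.881 and 1.18-fold in both genotypes. Hdac5 averaged 10.5 ± 2.84 FPKM in exercised VV, 10.9 ± 1.65 in sedentary VV, 9.63 ± 1.90 in exercised MM and 9.52 ± 1.90 in sedentary MM mice (SD, n = 4 each), with log2 fold changes of -0.07 (-0.48 to 0.34) in VV and 0.02 (-0.39 to 0.43) in MM. Mef2b, the family's remaining gene, averaged 0.0253 FPKM.

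**Figure D3:**
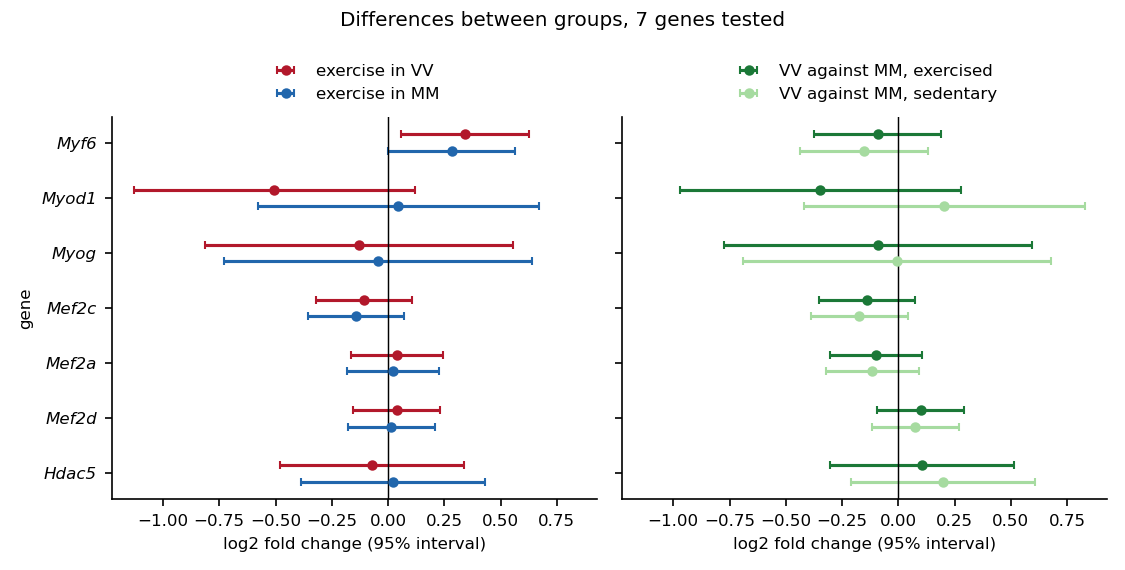
Log2 fold changes with 95% intervals (limma, 4 mice a group) for the 7 genes tested, for exercise in VV and in MM (left) and for VV against MM in exercised and sedentary mice (right). The intervals of Myod1 and Myog are the widest, those of the MEF2 genes the narrowest, and the interval of Myf6 for exercise in VV is the one that lies wholly above 0.

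The genotype comparisons gave no call among these genes either. For the difference of the exercise effects, VV minus MM, 0 of 7 passed, where 0% of all entries did and 1.85% had an unadjusted p under 0.05, and Myf6 gave 0.06 (-0.34 to 0.46). For VV against MM, 0 of 7 passed in exercised mice, where 0% of entries did, and 0 of 7 in sedentary mice, where 0.00951% did. The unadjusted shares of all entries were 7.08% and 4.47%, with none of the 7. All 9 genes overlapped between the genotypes in exercised and in sedentary mice, while 3.39% and 1.90% of tested entries were apart. With the states joined, 0 of 7 passed, where 0.00951% of entries did and 0.0285% were apart between genotypes.

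Mef2c came closest to a difference between genotypes. Its mean was lower in VV in both states, and over both the log2 fold change was -0.16 (-0.31 to -0.005, limma adjusted p = 0.381), and its unadjusted p was under 0.05, as for 13.1% of all entries. Hdac5 went the other way, at 0.15 (-0.14 to 0.44). An alternative added after seeing the data removed the trend of each mouse over the GC content of transcripts. In it the value for Mef2c was -0.006 (limma adjusted p = 0.982), and that of Hdac5 was 0.03. The balance of GC-rich and GC-poor transcripts also differed in median between the genotypes, as given below. Removing the trend can therefore also remove a difference between genotypes, and this fit cannot tell genotype from the composition of the libraries.

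That composition was the most visible pattern among these genes across mice. Mef2c and Hdac5 varied in opposite directions, with a Pearson correlation of -0.80 over the 16 mice, as did Mef2c and Mef2d (-0.59) and Mef2a and Hdac5 (-0.60), while Mef2d and Hdac5 (0.69) and Mef2a and Mef2c (0.60) varied together. Sedentary MM mouse 1 had the highest Mef2c, 145 FPKM, and the lowest Hdac5, 6.74 FPKM. Exercised VV mouse 1 had the lowest Mef2c, 88.8 FPKM, and the highest Hdac5, 13.9 FPKM. The transcripts of Mef2c and Mef2a hold 40.8 and 42.0% G and C, and those of Mef2d and Hdac5 55.0 and 58.8%. As a measure of each library, the mean log2 deviation of the 2083 tested entries with at least 55.7% GC was taken. That of the 2083 with at most 44.4% was subtracted. Hdac5 and Mef2c themselves belong to these sets. The entry that Mef2a shares with Lrrc28 took its GC content from Lrrc28, the first of its names. This measure ran from -0.56 in sedentary MM mouse 1 to 0.45 in exercised VV mouse 1. Its correlation over the 16 mice was 0.91 with Hdac5 and -0.89 with Mef2c, -0.69 with Mef2a and 0.64 with Mef2d, and between -0.04 and 0.27 with the other 5. Its median was 0.18 in exercised VV, 0.17 in sedentary VV, -0.08 in exercised MM and -0.10 in sedentary MM mice, and the groups overlapped. These correlations are descriptions with no test, and the part of this balance in the values of the members was not tested beyond the fit without the GC trend.

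**Figure D4:**
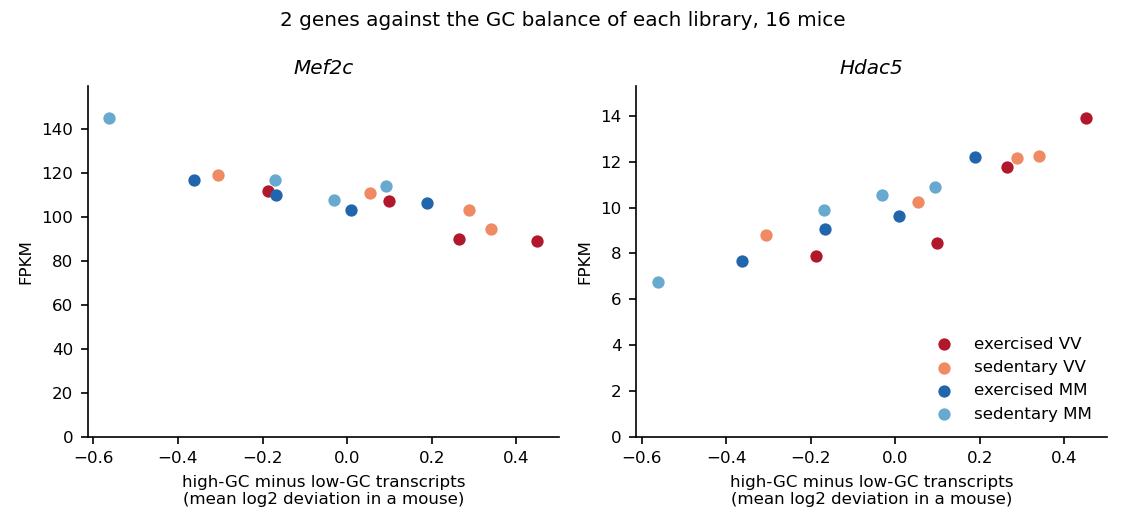
FPKM of Mef2c (left) and Hdac5 (right) in each mouse against the GC balance of its library, the mean log2 deviation of high-GC less that of low-GC entries, coloured by group. Mef2c runs from 145 FPKM at the low end to 88.8 at the high end, and Hdac5 from 6.74 to 13.9.

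The entries whose pattern across the 16 mice was most like that of Mef2c or Hdac5 had a GC content on the same side as the gene itself. By Pearson correlation of log2 values, Cacybp (0.95), Gm14325 (0.95) and Slc30a9 (0.94) were most like Mef2c, and their transcripts hold 39.9 to 44.4% GC. Sgca (0.96), Rtn2 (0.95) and Ptov1 (0.95) were most like Hdac5, at 56.7 to 64.1% GC. Rictor (0.88) and Malt1 (0.88) were among the entries most like Mef2a, and Dom3z (0.90), Wdr81 and 6030419C18Rik most like Mef2d. Myf6, at 46.4% GC, was most like Phlda1 (0.88), Trib1 (0.82) and Procr (0.82), which hold 51.9 to 58.9%. Myog was most like Id1 (0.88), an inhibitor that binds E proteins, followed by Vkorc1 and Eftud2. Myod1 was most like Pip4k2c (0.83), Fbxo36 and Fbxo17. As the best of 10519 entries each, these values are high by choice.

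Around the members, some partners and targets did pass the test after the run. Earlier results of these data were known when the lists were chosen, so a count beside the share of all entries is no test of a list. Among 23 tested cofactors of the myogenic factors and MEF2, 0 passed in VV, where 0.257% of all entries were called higher and 0.019% lower, and 2 passed in MM, both lower, where 1.08% were called higher and 0.143% lower. Mamstr, a coactivator of MEF2, fell to 6.89 ± 1.14 FPKM in exercised MM, against 11.9 ± 2.64 in sedentary MM mice (log2 fold change -0.77, SE 0.17, adjusted p = 0.0363), and had 6.76 ± 0.855 in exercised VV and 10.2 ± 2.38 in sedentary VV mice (-0.57, adjusted p = 0.253). The difference between its exercise effects was 0.20, with an adjusted p of 0.9997 in limma. With the genotypes joined 3 fell and 1 rose, where 1.16% of all entries fell and 1.98% rose. Mamstr (-0.67, adjusted p = 0.00465) and Six4 (-0.41, adjusted p = 0.0215) were lower, and Vgll2, a TEAD cofactor of muscle, was higher (0.55, adjusted p = 0.00527). The median of the list was -0.09 for both genotypes together, beside -0.06 over all entries. In MM alone, Mamstr lost its call without sedentary MM mouse 1, 3 or 4, exercised MM mouse 1 or 2, or sedentary VV mouse 2 (adjusted p up to 0.131), and also with no filter, with plain eBayes and with the title number as a block. With the genotypes joined it kept it in all 27 alternatives, as did Vgll2, whereas Six4 lost it without exercised MM mouse 1 or exercised VV mouse 1 or 2 (up to 0.0513) and with the title number as a block (0.0618).

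Among 20 tested targets of the myogenic factors, 0 passed in VV, where 0.257% of all entries were called higher, and 1 rose in MM, where 1.08% were. Over both genotypes 2 rose, Klhl40 and Musk, where 1.98% of all entries did. Klhl40, entered under its older name Kbtbd5, encodes a kelch protein that stabilizes the thin filament. It had 57.3 to 111 FPKM in exercised MM, against 20.3 to 29.8 in sedentary MM mice (log2 fold change 1.70, SE 0.25, adjusted p = 0.00196), and 42.0 to 99.6 in exercised VV, against 21.0 to 32.5 in sedentary VV mice (1.12, SE 0.25, adjusted p = 0.0837). The groups did not overlap in either genotype, and the difference between the effects, -0.58 (SE 0.35), did not pass. The call in MM held in all 27 alternatives, and in VV Klhl40 was called in 4 of them: with median-ratio or quantile scaling, with the GC trend removed and without exercised VV mouse 3 (adjusted p down to 0.00369). Acta1, Ckm and Des, structural targets that fill the adult fibre, did not pass, and the list's median was 0.06 in VV and 0.05 in MM.

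Of 22 tested targets of MEF2, 3 rose in both genotypes, Ppargc1a (PGC-1α), Xirp1 and Hspb7, where 0.257% of all entries were called higher in VV and 1.08% in MM. As this list too was chosen with earlier results known, whether targets of MEF2 as a set respond was not tested. Over both genotypes 4 rose, the fourth being Jun (0.70, adjusted p = 0.00235), where 1.98% of all entries did. Ppargc1a had 53.6 ± 25.0 FPKM in exercised VV and 10.5 ± 2.14 in sedentary VV, and 56.4 ± 17.6 in exercised MM and 11.9 ± 3.81 in sedentary MM mice, with log2 fold changes of 2.27 in VV and 2.23 in MM. In VV, Xirp1 (adjusted p = 0.0786) and Hspb7 (adjusted p = 0.0624) lost the call when only the groups compared were fitted. The list's median was 0.01 in VV and 0.02 in MM, beside -0.08 and -0.05 over all entries. In the list of genes that HDAC4, DACH2 and myogenin act on in denervated muscle, 0 of 6 passed in VV, 1 rose in MM and 3 rose with the genotypes joined, beside the same 0.257%, 1.08% and 1.98% of all entries. Trim63 (MuRF1), a ubiquitin ligase of muscle wasting, had 591 ± 227 FPKM in exercised MM and 199 ± 52.8 in sedentary MM mice (1.52, SE 0.33, adjusted p = 0.0323), and 723 ± 289 in exercised VV and 269 ± 117 in sedentary VV mice (1.45, adjusted p = 0.0994). Its call in MM was lost without sedentary MM mouse 1, 3 or 4, exercised MM mouse 1 or 3, or sedentary VV mouse 1 (adjusted p up to 0.111) and with the title number as a block (0.133), and that over both genotypes (1.48, adjusted p = 0.00188) held in all 27 alternatives. Fbxo32 (atrogin-1), another ubiquitin ligase of muscle wasting, and Musk, the receptor kinase of the neuromuscular junction, passed in neither genotype alone but did with both joined. Fbxo32 averaged 155 ± 28.7 FPKM in exercised VV, 91.7 ± 12.4 in sedentary VV, 135 ± 37.9 in exercised MM and 96.5 ± 28.8 in sedentary MM mice (0.62, adjusted p = 0.0317). Musk averaged 8.86 ± 1.56 FPKM in exercised VV, 6.40 ± 0.834 in sedentary VV, 8.91 ± 1.98 in exercised MM and 6.01 ± 1.18 in sedentary MM mice (0.50, adjusted p = 0.0279). Fbxo32 lost its call without sedentary MM mouse 3 or 4, exercised MM mouse 1, sedentary VV mouse 1, 2 or 3, or exercised VV mouse 2 or 4 (adjusted p up to 0.0709). Musk lost its call without sedentary MM mouse 4, exercised MM mouse 2 or 3, sedentary VV mouse 1 or 3, or exercised VV mouse 1 or 2 (up to 0.0620) and with no filter. Both also lost it with the title number as a block (0.101 for Fbxo32 and 0.0803 for Musk). The acetylcholine receptor gene Chrna1, the list's best known myogenin target, gave -0.03 in VV and -0.17 in MM and did not pass.

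**Figure D5:**
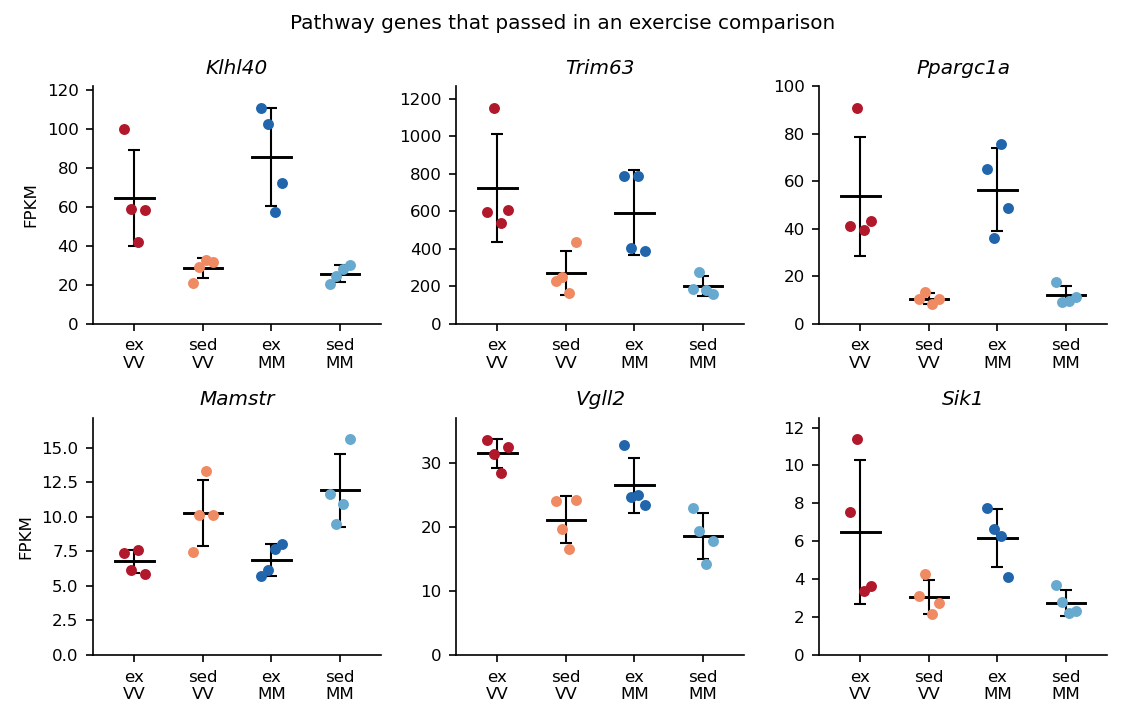
FPKM by group of 6 pathway genes that passed in at least 1 exercise comparison, 1 point a mouse, with mean and SD of 4 mice. Klhl40, Trim63 and Ppargc1a are higher in every exercised mouse than in every sedentary mouse of the same genotype, whereas single mice overlap in VV for Mamstr and Sik1.

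Few of the enzymes that bear on HDAC5 were called at the RNA level, where 0.276% of all entries passed in VV and 1.23% in MM. Among 8 tested class IIa deacetylases and MEF2 corepressors 0 passed in either genotype, with Ctbp1 (41.2 FPKM) and Hdac3 (33.2 FPKM) the highest. Hdac4 averaged 7.25 ± 1.33 FPKM in exercised VV, 5.73 ± 1.06 in sedentary VV, 6.50 ± 1.21 in exercised MM and 5.12 ± 1.19 in sedentary MM mice (0.33 in VV and 0.35 in MM, adjusted p = 0.566 and 0.508). Of 15 tested kinases of these deacetylases 0 passed in VV or in MM, the highest entries being Camk2a (134.9 FPKM) and Camk2g (61.1 FPKM). The paper describes abundant transcripts of αKAP, an adaptor without kinase activity, that commercial Camk2a primers do not separate from those of CaMKIIα. A level per gene may hold both, so the Camk2a value cannot be read as kinase RNA. By the paper, CaMKIIγ leads among the CaMKII isoforms of mouse skeletal muscle. With the genotypes joined Sik1, a salt-inducible kinase, was higher (1.03, adjusted p = 0.0252) and Camk2g lower (-0.17, adjusted p = 0.0455), where 1.98% of all entries were called higher and 1.16% lower. Sik1 lost the call without sedentary MM mouse 3 or 4, exercised MM mouse 1 or 2, sedentary VV mouse 3 or exercised VV mouse 1 (adjusted p up to 0.0584), and with the title number as a block (0.0670). Camk2g kept it without sedentary MM mouse 1 or sedentary VV mouse 2 and lost it when any other single mouse was left out (adjusted p up to 0.101). It also lost it in 6 of 11 other settings, namely no filter, median-ratio scaling (-0.12, adjusted p = 0.231), quantile scaling, plain eBayes, the title number as a block and the GC trend removed.

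No dimer partner or inhibitor of the myogenic factors was called, where 0.276% of all entries passed in VV and 1.23% in MM. At those shares few genes of lists this small would be called. The E protein genes Tcf12 (7.57 FPKM), Tcf4 (7.27 FPKM) and Tcf3 were 0 of 3, and the Id and bHLH repressor genes 0 of 10, in each genotype, Bhlhe40 (40.6 FPKM) and Bhlhe41 (23.0 FPKM) being the highest of the repressors. Of 6 tested embryonic and fusion genes 0 passed, beside the same shares, and Myh3, the embryonic myosin of regenerating fibres, averaged 0.437 FPKM. The highest of these, Actc1, the cardiac actin of developing muscle, had 311 FPKM in exercised VV, 217 in sedentary VV, 248 in exercised MM and 298 in sedentary MM mice. No gene of the 9 pathway lists passed for VV against MM or for the difference of the exercise effects, where at most 0.00951% of all entries did.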

How the data were processed

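Quadriceps RNA of 16 mice was compared, 4 in each group, the groups being taken from the sample labels. The authors deposited FPKM values per gene. The tools in their processing notes are TopHat and StringTie, with Cuffdiff 2.2.1, SAMtools and FastQC, on mm10. The gene annotation they used is not given in the sources here. Without read counts, the precision of a value was judged by how the 4 mice of a group spread.

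Entries with a mean of at least 1 FPKM (10519) were fitted as log2(FPKM + 0.1) with limma 3.58.1 in R 4.3.3, with 4 group means and eBayes with trend and robust settings. Tests were two-sided, with p values adjusted over all entries by the Benjamini-Hochberg method, and intervals are 95% and unadjusted. On simulated data for exercise in MM with 10519 entries, 88% of 2-fold and 99% of 4-fold changes were recovered. These shares need not hold for each member. Standard errors of the members for exercise in MM ran from 0.09 (Mef2d) to 0.32 (Myog) on the log2 scale. Changes smaller than 2-fold are not covered by these shares. Transcript GC content and coordinates come from GENCODE M21. Python 3.11.15 with matplotlib 3.10.9 drew the plots.

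The 27 alternatives changed the pseudocount, filter, scaling, variance model or samples, took the title number as a block or, added after seeing the data, removed the GC trend of each mouse. Members and gene lists were chosen with earlier results of these data known. Named are all members, Camk2g, up to 4 genes a list that passed with the largest change for exercise in MM or VV, or else the 2 highest, and the 3 entries most like each tested member. Chrna1, Acta1, Ckm, Des, Hdac4, Mef2b, Myh3, Tcf3, Sdc4, the satellite markers and the genes that passed over both genotypes were named after their values were seen. Some genes that the rule names are not reported here.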

Additional observations from a re-analysis of the deposited data

Results flagged for a closer look

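Among the 36 sets of 4 mice (9 genes in 4 groups), 1 had a mouse that stood apart from the other 3. Myf6 was at 92.9 FPKM in exercised MM mouse 2, whereas the other 3 mice of that group lay between 64.7 and 68.0 FPKM. The gap made up 0.885 of the group's range, above Dixon's 95% critical ratio for 4 mice, a level that chance reaches in about 1 of 20 groups. Without this mouse the log2 fold change of Myf6 with exercise was 0.16 in MM (adjusted p = 0.844, limma) and 0.25 over both genotypes (adjusted p = 0.167).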

How the results depend on the processing

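The number of members passing was 0 in all 7 comparisons, and it stayed 0 in 6 of them in all 27 alternative fits. For exercise over both genotypes it was 1 (Myf6) with median-ratio scaling (Myf6, log2 fold change 0.37, adjusted p = 0.0436 by limma) and with the GC trend of each mouse removed (0.38, 0.0447), which was added after seeing the data, and ranged from 0 to 1 when single mice were left out, being 1 without sedentary VV mouse 2 (0.36, 0.0467) or exercised VV mouse 3 (0.36, 0.0414). The cause was not tested. Called entries over the whole table varied more: over both genotypes from 153 with the title number as a block to 593 with the GC trend removed, around 330, in MM from 72 to 246, around 129, and in VV from 5, with only the groups compared, to 75, around 29. Leaving out single mice gave 225 to 374, 69 to 139 and 16 to 43. The labels give no replicate numbers to pair by. Some mice share the number before the dash in their titles, and as a random block this number had a consensus correlation of 0.23 and left 0 members passing in all 7 comparisons. No number is shared by exercised and sedentary MM mice, so that there it cannot be told apart from exercise. In VV only the number 2296 is shared, by 2 exercised mice and 1 sedentary mouse. There number and exercise can be told apart only in part. With 4 mice a group and no counts, changes in Myf5 and Pax7, below 1 FPKM, could be measured only coarsely.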
